A study of Mus musculus with 12 samples.

Results

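The expression of 10 genes of oviduct epithelium and motile cilia was followed across 12 mouse uteri. The genes are Ovgp1, Foxj1, Tekt1, Tppp3, Dynlrb2, Rsph1, Spag6, Dnali1, Capsl and Ccdc113. They were chosen by name, and every probe that the platform annotation gives to any of them was taken, which left 13 of the 45281 probes on the array. Ovgp1, Tekt1 and Dnali1 had 2 probes each and the other genes 1. They are 10 of the 19057 genes for which the array holds a probe with 1 gene symbol.

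RNA of whole uteri from C57BL/6 female mice of 2 months was measured on Illumina bead arrays, 1 array per uterus and 3 uteri per genotype. Control mice were wild type (Cdh1+, P53+). The uteri labelled Cdh1 cKO were Cdh1-, P53+, the P53 cKO uteri were Cdh1+, P53-, and the double cKO uteri were Cdh1-, P53-. The comparisons ask what loss of E-cadherin (Cdh1), loss of the tumour suppressor p53, and loss of both did to the uterus. The ending cKO is that of the sample titles, and no source used here names the recombinase, the cells in which it acts, the deleted exons, the litters or the stage of the estrous cycle.

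The oviduct is lined by secretory cells, which release oviductal glycoprotein (Ovgp1) into the fluid around the egg, and by ciliated cells, whose beating moves that fluid. Each motile cilium is built on a ring of microtubule doublets around a central pair, with dynein arms that drive the beat, radial spokes that regulate it and tektins inside the doublet walls. Foxj1 and the RFX factors are the transcription factors that switch on the genes of motile cilia, and in the mouse uterus ciliated cells are rare compared with the oviduct.

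Values below are background-corrected, quantile-normalised log2 signals. The lowest signal of a detected probe (detection p below 0.05) was 4.80 to 4.98 on the 12 arrays, so values near or below this are background. Between 20075 and 21670 probes were detected per array, and the member probes rested on 25 to 55 beads with a bead standard error of 2.08% to 7.26% of the intensity. With 3 arrays in each genotype, precision is limited by their small number and by the spread between uteri. No label says whether the uteri come from separate litters, so p-values speak only of the variation among these arrays. Double cKO replicate 1 stood apart from the rest of its group. Its log2 signals over all probes correlated with those of replicates 2 and 3 at r = 0.951 to 0.964, while these 2 correlated with each other at 0.983. Over all genotypes, arrays of the same group correlated at 0.936 to 0.984, so the least alike pair was in another group. The Cdh1 signal of double cKO replicate 1 was 9.67, against 8.18 and 7.36 in the other double cKO uteri and 9.41 to 10.08 in control. The uteri labelled Cdh1 cKO had Cdh1 at 9.58 to 9.98, inside the control range. The place of that probe relative to the deleted exons is unknown here. Results that rest on double cKO replicate 1 are therefore given with and without it.

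Ovgp1 (chr3:105973802-105987423 in GRCm38.p6), the secretory gene of the list, was the member that varied most between uteri. On its brighter probe the log2 signals were 11.95, 11.56 and 10.39 in control, and in P53 cKO 11.004, 9.56 and 8.46. In the uteri labelled Cdh1 cKO they were 7.61, 7.60 and 7.34, all below every control and every P53 cKO uterus. The double cKO uteri had 13.20, 5.43 and 5.79, which are the highest signal of all 12 uteri and the 2 lowest. As intensities before normalisation, these 3 double cKO values were 8998, 131 and 142 units on 34, 45 and 36 beads. The dimmer Ovgp1 probe also had its highest signal, 8.07, in double cKO replicate 1. It was below detection in the other double cKO uteri, in all 3 uteri labelled Cdh1 cKO and in P53 cKO replicates 2 and 3. Its values in those uteri are background and cannot be ordered.

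On the brighter probe the order of the group means of Ovgp1 was control (11.30 ± 0.81, SD, n = 3), P53 cKO (9.67 ± 1.28), double cKO (8.14 ± 4.38) and Cdh1 cKO (7.52 ± 0.15). With the spread of all 12 uteri pooled in limma, no difference between 2 groups passed the threshold, which was a Benjamini-Hochberg adjusted p below 0.05 over the 23229 probes tested. The uteri labelled Cdh1 cKO were 13.8-fold below control (log2 difference -3.78 ± 1.61, SE, 95% interval -7.33 to -0.23, limma adjusted p = 0.593). The P53 cKO uteri had a log2 difference of -1.63 ± 1.61 from control (limma adjusted p = 0.999). Double cKO differed from control by -3.16 ± 1.61 (limma adjusted p = 0.388), from Cdh1 cKO by 0.62 (0.975) and from P53 cKO by -1.53 (0.764). The interaction, the double cKO difference beyond the sum of both single ones, was 2.25 ± 2.28 with an interval from -2.77 to 7.27 (limma adjusted p = 0.991). On the dimmer probe the order differed, with control at 5.72, double cKO at 5.59, P53 cKO at 4.88 and Cdh1 cKO at 4.38. Double cKO differed from control there by -0.13 (limma adjusted p = 0.966).

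Leaving out double cKO replicate 1 changed this picture. That uterus had the highest Ovgp1 signal of its group, 13.20 against 5.43 and 5.79, and was singled out from these same data. Its removal was therefore bound to lower the double cKO mean and the spread within groups. The adjusted p-values without it follow from that exclusion and do not by themselves show a fall. Without replicate 2 or 3 instead, the difference from control was -1.80 (limma adjusted p = 0.682) or -1.98 (0.700). The standard error of the Ovgp1 differences between groups of 3 fell from 1.61 to 0.57, and the 2 remaining double cKO uteri lay 5.69 ± 0.64 log2 units below control (log2 difference -5.69, limma adjusted p = 0.00277). They also lay below P53 cKO, with a log2 difference of -4.06 ± 0.64 (limma adjusted p = 0.0201). The difference of these 2 uteri from Cdh1 cKO turned from above to below, at -1.90 ± 0.64, and did not pass (limma adjusted p = 0.350, with 0.422% of all tested probes called). These values are from the brighter probe. The dimmer probe, below detection in both uteri, passed in neither comparison, at -1.37 from control (limma adjusted p = 0.229) and -0.54 from P53 cKO (0.813). For Cdh1 cKO against control, whose means do not involve that uterus, the adjusted p was then 0.132. Without that uterus 1.09% of all tested probes were called in double cKO against control and 0.71% in double cKO against P53 cKO.

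**Figure D1:**
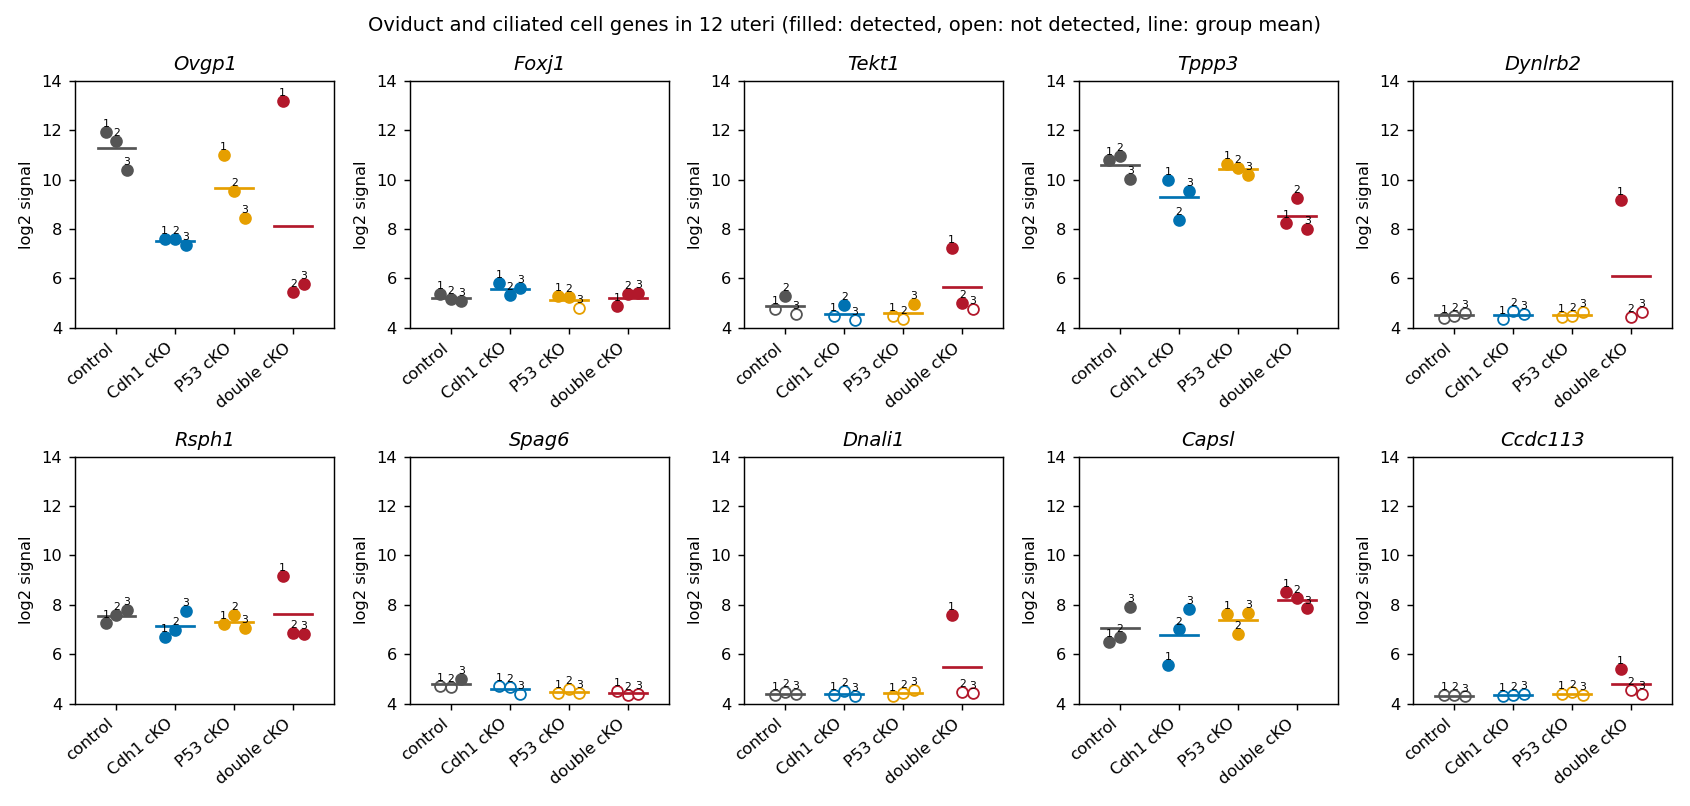
Log2 signal (vertical axis) of the brighter probe of each of the 10 genes in every uterus, by genotype (horizontal axis). The numbers are replicates, filled points are detected (p below 0.05), open points are not, and lines are means of 3 uteri. Double cKO replicate 1 has the highest signal for Ovgp1, Tekt1, Dynlrb2, Rsph1, Dnali1, Capsl and Ccdc113, while Tppp3 is low in all 3 double cKO uteri.

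Foxj1 (chr11:116330704-116335499), the regulator of the list, did not share this pattern. Its signals were close to background in every uterus, 5.37, 5.17 and 5.08 in control, 5.82, 5.32 and 5.63 in Cdh1 cKO, and 5.28, 5.25 and 4.80 in P53 cKO. In double cKO they were 4.88, 5.36 and 5.40, so that replicate 1 had the lowest signal of its group. The double cKO difference from control was 0.01 ± 0.21 (SE), with a 95% interval from -0.45 to 0.47 (limma adjusted p = 0.991). The Cdh1 cKO uteri lay above all P53 cKO uteri by 0.48 ± 0.21, which did not pass (limma adjusted p = 0.908). A probe this close to background understates a change, and a difference in measured signal inside that interval could not be told from 0 here.

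Both dynein genes among the members, Dynlrb2 and Dnali1, were detected in 1 uterus. Dynlrb2 (chr8:116505015-116515915) encodes a light chain of the dynein complex. Its signal was 9.18 in double cKO replicate 1 and 4.34 to 4.69, below detection, in the other 11 uteri. As intensities, the probe had 637 units on 39 beads there and 104 and 110 units in the other double cKO uteri. Dnali1 (chr4:125055339-125065657) encodes a light intermediate chain of the inner dynein arm. Its brighter probe read 7.60 in double cKO replicate 1 and 4.32 to 4.54, again below detection, elsewhere. The second Dnali1 probe was below detection on all 12 arrays, at 4.31 to 4.59, so the probes of this gene disagree. Because both genes were detected on a single array, neither entered the test. Their group means set double cKO at least 2.34-fold (Dynlrb2, means 6.09 and 4.50) and at least 1.55-fold (Dnali1, means 5.49 and 4.39) above control, and both values come from replicate 1: without it the differences were 0.05 and 0.05 log2 units.

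Tekt1 (chr11:72344717-72362442), a tektin of the doublet wall, behaved alike on both of its probes. The brighter probe had 7.23, 5.005 and 4.76 in double cKO, 4.77, 5.30 and 4.54 in control, 4.48, 4.92 and 4.33 in Cdh1 cKO, and 4.46, 4.38 and 4.97 in P53 cKO. It was detected in 5 uteri, and only double cKO replicate 1 stood clear of background. The dimmer probe read 7.02 there and at most 4.87 in the other 11 uteri. The double cKO difference from control was 0.79 ± 0.53 (limma adjusted p = 0.525), and 0.01 without replicate 1.

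Ccdc113 (chr8:95534060-95558888), a coiled-coil protein of centriolar satellites and cilia, was detected in the same single uterus. Its signal was 5.40 in double cKO replicate 1 and 4.29 to 4.57 in the other 11. This is a small step above background, on 31 beads and with a detection p of 0.00534.

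Rsph1 (chr17:31255019-31277296) encodes a radial spoke head protein and was detected in all 12 uteri. Its signals were 7.26, 7.58 and 7.79 in control, 6.71, 6.99 and 7.75 in Cdh1 cKO, and 7.22, 7.58 and 7.06 in P53 cKO. In double cKO they were 9.17, 6.84 and 6.82. Replicate 1 was thus the highest of the 12 uteri, by 1.38 log2 units, and the other double cKO uteri lay below all 3 controls. The group means of double cKO and control differed by 0.07 ± 0.53 (limma adjusted p = 0.974), and by -0.71 without replicate 1.

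Spag6 (chr2:18694011-18749746), which encodes a central pair protein, was the exception among the axoneme genes. Its probe read 4.36 to 4.98 and was detected in a single uterus, control replicate 3. Without the probe's sequence it could not be checked whether it measures Spag6, its close relative Spag6l or both. Double cKO replicate 1 had 4.50. A mouse gene of closely related name, Spag6l on chromosome 16, read 7.17 in double cKO replicate 1 and at most 4.78 in the other uteri. Spag6l was not among the 10 genes and was looked up after its value was seen.

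The promoters of these genes bear on whether they share binding sites of the RFX factors. RefSeq promoter windows of GRCm38.p6, from 250 bases before to 50 after a gene start, were at hand for 7 of the 10 genes, with 2 starts for Tekt1, and Foxj1, Tppp3 and Rsph1 had none in the table. The stretches of 120 bases below are shown for all of these, the genes that were highest in double cKO replicate 1 first and then Spag6, which was not. They are written 5′ to 3′ on the gene's strand. Capitals mark the RFX core GTTGCC on either strand (read as GGCAAC on the other) and, in Dynlrb2, the X-box that overlaps it. The windows of Spag6 and of both Tekt1 starts lie wholly inside the gene spans given above, so they belong to internal starts.
Dynlrb2, chr8:116504910-116505029, plus strand: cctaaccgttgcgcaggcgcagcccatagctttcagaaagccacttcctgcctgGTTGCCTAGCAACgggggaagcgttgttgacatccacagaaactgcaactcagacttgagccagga
Tekt1 upstream start, chr11:72361835-72361954, minus strand: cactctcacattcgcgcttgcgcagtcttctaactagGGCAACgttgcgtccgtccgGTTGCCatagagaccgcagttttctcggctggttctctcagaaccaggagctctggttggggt
Dnali1, chr4:125065698-125065817, minus strand: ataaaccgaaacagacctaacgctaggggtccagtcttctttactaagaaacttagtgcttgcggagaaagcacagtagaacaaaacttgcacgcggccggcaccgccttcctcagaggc
Tekt1 downstream start, chr11:72361337-72361456, minus strand: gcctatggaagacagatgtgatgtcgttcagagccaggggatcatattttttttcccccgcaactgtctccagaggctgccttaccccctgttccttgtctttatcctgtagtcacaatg
Ccdc113, chr8:95534030-95534149, plus strand: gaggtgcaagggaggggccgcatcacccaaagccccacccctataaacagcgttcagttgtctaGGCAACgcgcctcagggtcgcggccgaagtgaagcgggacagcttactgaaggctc
Capsl, chr15:9435868-9435987, plus strand: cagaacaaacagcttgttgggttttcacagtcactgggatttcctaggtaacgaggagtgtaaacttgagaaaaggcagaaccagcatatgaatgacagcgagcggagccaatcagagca
Ovgp1, chr3:105973642-105973761, plus strand: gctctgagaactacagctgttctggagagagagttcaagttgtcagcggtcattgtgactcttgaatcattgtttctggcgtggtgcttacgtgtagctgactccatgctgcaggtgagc
Spag6, chr2:18698928-18699047, plus strand: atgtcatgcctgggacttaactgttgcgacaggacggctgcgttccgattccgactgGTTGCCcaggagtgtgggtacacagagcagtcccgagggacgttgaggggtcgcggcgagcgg

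The core GTTGCC stood in 4 of the 8 member promoters, those of Ccdc113, Dynlrb2, Spag6 and the upstream start of Tekt1, and in 12.5% of all 32851 promoters of the same length. In Dynlrb2 it opens an X-box, the inverted repeat that RFX factors bind, written here as GTNNCC, up to 3 bases and NGNAAC. That form was found in no other member promoter and in 5.25% of all promoters. With the stricter second arm GGNAAC no member promoter matched, against 2.34% of all. Of the forkhead cores, TGTTTGT was found in Capsl and in 6.61% of all promoters, and TGTTTAC in no member and in 3.65% of all. The core was present in Spag6, whose probe was below detection in 11 uteri, and the letters searched were not found in the windows of Ovgp1, Dnali1 and the downstream start of Tekt1. A match is a description of letters and does not show binding.

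Tppp3 (chr8:105467492-105471422) encodes a tubulin-polymerising protein and is used as a marker of ciliated cells. It was strongly detected in all 12 uteri, where Dynlrb2, Dnali1 and Ccdc113 were detected in 1, and differed from the other members in its pattern. Whether its signal in these uteri came from ciliated cells was not tested. The signals were 10.80, 10.96 and 10.05 in control and 10.63, 10.48 and 10.19 in P53 cKO. They were 9.99, 8.36 and 9.56 in Cdh1 cKO and 8.26, 9.27 and 8.02 in double cKO. All 3 double cKO uteri lay below all control and all P53 cKO uteri, and replicate 1 was the middle value of its group. The Cdh1 cKO uteri also lay below every control and every P53 cKO uterus, but overlapped with double cKO.

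Tppp3 was the only member called in any of the 7 contrasts. It fell 4.25-fold in double cKO against control (log2 difference -2.09 ± 0.44, SE, 95% interval -3.05 to -1.13, limma adjusted p = 0.0364, lower in 3 of 3 uteri). Of all tested probes, 0.547% were called lower in that comparison. That call lies close to the threshold. It was lost without double cKO replicate 1 (-1.96, adjusted p = 0.115), without double cKO replicate 3 (-1.84, 0.151), without control replicate 1 (-1.99, 0.145) or 2 (-1.91, 0.163), and without P53 cKO replicate 1 (0.0595) or 3 (0.0549). It was also lost when dim probes were kept in the test (0.0843). Against P53 cKO the double cKO difference was -1.92 ± 0.44 (limma adjusted p = 0.0762), and against Cdh1 cKO it was -0.79 ± 0.44 (0.752). Cdh1 cKO against control gave -1.30 ± 0.44 (limma adjusted p = 0.481) and P53 cKO against control -0.17 ± 0.44 (0.999). The interaction was -0.62 ± 0.62 (limma adjusted p = 0.991), so the double cKO value was not distinguishable from the sum of both single differences. In whole uteri, fewer cells of a type and less RNA per cell cannot be told apart, for Tppp3 and for every other gene here.

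Capsl (chr15:9436016-9466039), a calcium-binding protein gene listed among genes of ciliated cells, was detected in all uteri and was even across the double cKO group. Its signals there were 8.51, 8.26 and 7.85. Control had 6.51, 6.70 and 7.91, Cdh1 cKO 5.55, 7.0004 and 7.83, and P53 cKO 7.63, 6.81 and 7.66. All 3 double cKO uteri lay above the Cdh1 cKO uteri and above the P53 cKO uteri, and they overlapped with control. The differences were 1.41 ± 0.53 from Cdh1 cKO (limma adjusted p = 0.530), 0.84 ± 0.53 from P53 cKO (0.589) and 1.17 ± 0.53 from control (0.330), none of which passed.

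**Figure D2:**
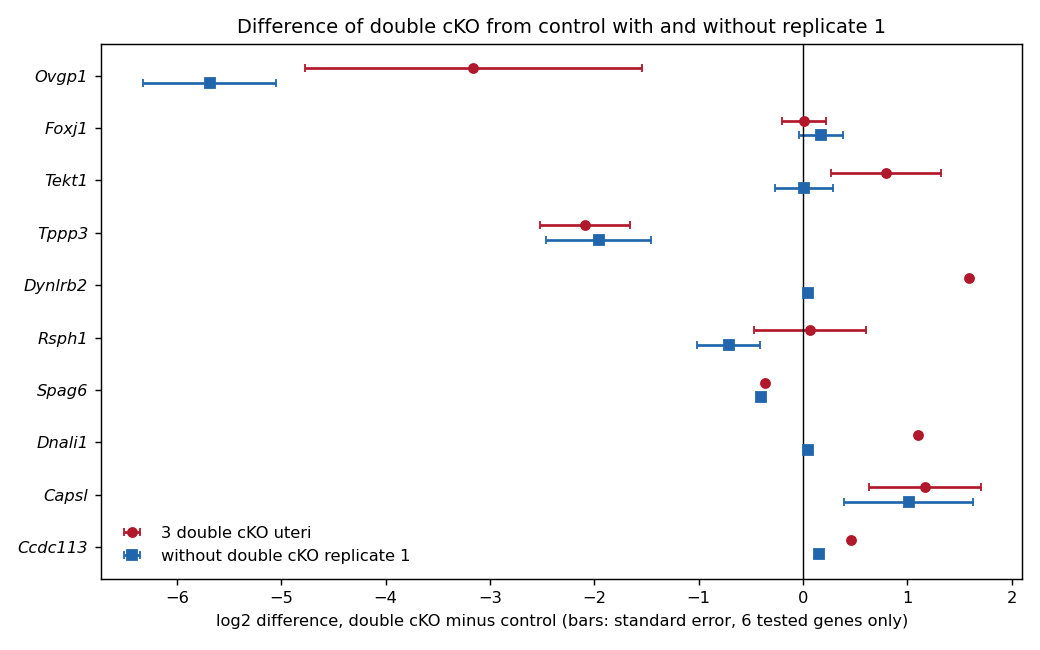
Log2 difference of double cKO from control (horizontal axis) for the 10 genes (vertical axis), with all 3 double cKO uteri (circles) and without replicate 1 (squares). Bars are limma standard errors, drawn for the 6 tested genes. Without replicate 1 the Ovgp1 difference goes from -3.16 to -5.69, those of Tekt1, Dynlrb2 and Dnali1 go to nearly 0, and those of Tppp3 and Capsl change little.

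Counted over the 7 contrasts, 6 of the 10 genes were tested, and 4 (Dynlrb2, Spag6, Dnali1 and Ccdc113) were detected in too few uteri. In double cKO against control 1 of the 6 was called, where 1.96% of all tested probes were, and 1 of 6, Tppp3, had groups that did not overlap, as did 24% of all probes. In Cdh1 cKO against control none was called by limma (0.00861% of all probes), while Ovgp1 and Tppp3 had an unadjusted p below 0.05 and groups that did not overlap (8.14% and 11.1% of all probes). In P53 cKO against control limma called none (0.0215% of all probes), 0 of 6 had an unadjusted p below 0.05 (2.88%) and 0 of 6 had separate groups (9.99%). Double cKO against Cdh1 cKO had 0 calls (0.396% of all probes), with Capsl at an unadjusted p below 0.05 (7.71%) and with separate groups (10.6%). Double cKO against P53 cKO had 0 calls (0.977%), with Tppp3 at an unadjusted p below 0.05 (11.9%) and Tppp3 and Capsl with separate groups (18.9%). Cdh1 cKO against P53 cKO had 0 calls (0.0215%), with Foxj1 and Tppp3 at an unadjusted p below 0.05 (5.43%) and these and Ovgp1 with separate groups (9.81%). The interaction gave 0 calls (0.0129%) and 0 genes at an unadjusted p below 0.05 (5.01%). The comparisons share their control or single cKO uteri, so these counts are not independent of each other.

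The wider set of motile cilium genes showed how far the signal of double cKO replicate 1 reached. A list of 156 further genes was written from textbook knowledge, with earlier results of these data known. It covered regulators, dynein arms, dynein assembly, radial spokes and central pair, tektins and other microtubule proteins, and other ciliated cell genes. Of these, 122 had a probe and 65 were tested. Limma called none of the 65 in any of the 7 contrasts. In double cKO against control 5 of the 65 had an unadjusted p below 0.05 (7.69%, against 15.4% of all probes), and the median log2 difference was 0.06, beside -0.04 over all tested probes.

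Single arrays showed what group means did not. A gene was counted as leading on an array when it was detected there and at least 1 log2 unit above all other 11 arrays, a rule chosen after the values were seen. A gene with several probes was judged by the probe with the widest lead. On double cKO replicate 1 this held for 102 of the 19057 genes, which is 0.535%. It held for 5 of the 10 members, with leads of 4.49 (Dynlrb2), 3.06 (Dnali1), 2.15 (Tekt1), 1.44 (Ovgp1) and 1.38 (Rsph1). Of the further cilium genes it held for 19 of 122, or 15.6%, and Spag6l is among the 19. This share is a description, since the list and the rule were both chosen with results of these data known. On each of the other 11 arrays the rule held for 0 members, for 0 or 1 of the 122 cilium genes and for 0 to 96 of all genes. Double cKO replicate 1 had the highest of the 12 signals for 55 of the 122 cilium genes, where the other arrays had it for 1 to 12, and 80 of the 122 were detected there, against 47 to 58 elsewhere.

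**Figure D3:**
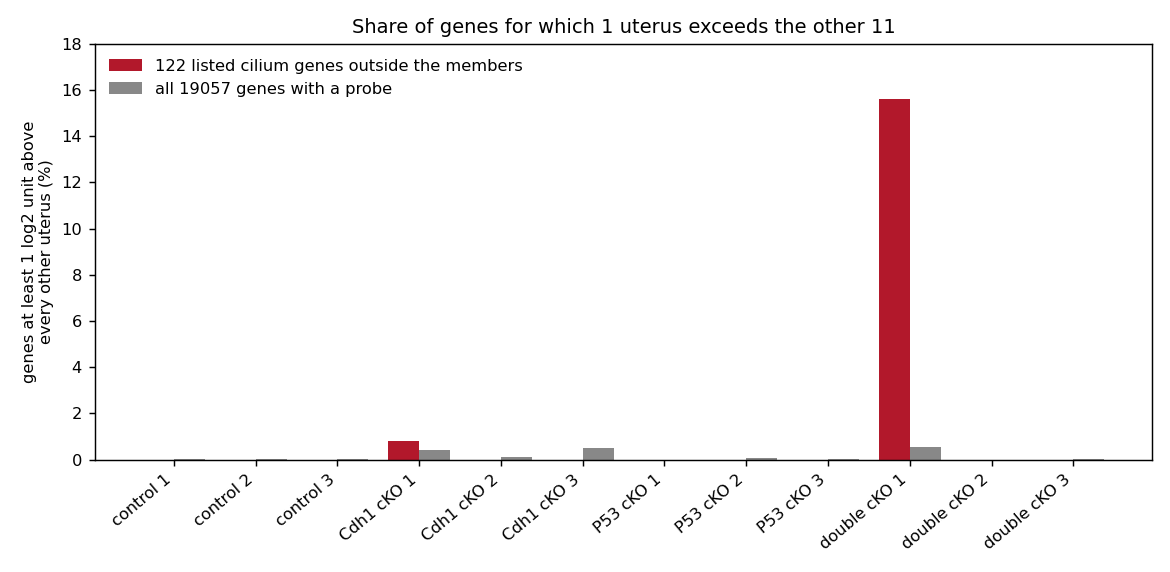
Percent of genes that were detected in a uterus and at least 1 log2 unit above every other uterus (vertical axis), for each of the 12 uteri (horizontal axis). Dark red bars are the 122 further cilium genes and grey bars all 19057 genes. In double cKO replicate 1 the shares are 15.6% and 0.535%, and in no other uterus is the cilium share above 0.82%.

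The leading cilium genes spanned several parts of the axoneme. Among radial spoke and central pair genes 7 of 27 led, such as Rsph4a, a spoke head gene, at 7.30 where the other uteri had at most 4.80, and Lrrc34 at 8.48 against at most 6.79. Among tektins and microtubule proteins 5 of 23 led, for example Cfap45, a protein of the inner doublet wall, at 7.20 against at most 5.14, and Cfap126 at 7.44 against at most 5.59. In the assembly of dynein arms 1 of 9 led, Dnaaf1 at 6.42 against at most 4.61. Of other ciliated cell genes 6 of 32 led, with Fam183b at 9.48 against at most 4.79, the widest lead of the 19057 genes, and Pifo at 7.15 against at most 5.40. The 19 leads ran from 1.12 to 4.69 log2 units with a median of 1.75. Summed on the linear scale, the lists went both ways in that uterus. Radial spoke and central pair genes gave 3340 against 1801 to 2357 elsewhere, and other ciliated cell genes 6064 against 2848 to 4202. Tektins and microtubule proteins gave 5570, below 7998 to 13515 elsewhere, with Tubb4b and Tuba1a the brightest of that list. Regulators gave 2186, below 2261 to 3728, and dynein arms and dynein assembly lay inside the range of the others.

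No further gene of the regulators or the dynein arms led, although the member Dnali1, an arm gene, did. This count covers 17 regulators and 15 dynein arm genes on the list of further genes, which leaves the members out, and holds on every array. Rfx2, an RFX factor of ciliogenesis, had 8.39 in double cKO replicate 1 and 8.22 to 10.51 in the other uteri. The dynein heavy chain gene Dnah11 had 8.73 there and 8.26 to 10.002 elsewhere. Dnai1 (Dnaic1 on the array), an intermediate chain gene of the outer arm, was highest there but short of the 1 unit that the rule asks for, at 5.39 against at most 4.67 on the probe with the wider lead and at 5.92 against at most 5.35 on its brighter probe. Zmynd10 and Mlf1 were likewise highest in double cKO replicate 1, at 5.58 against at most 4.98 and at 8.07 against at most 7.51. Genes that vary widely for other uteri were present too: Mns1 ran from 5.67 in Cdh1 cKO replicate 1 to 9.27 in P53 cKO replicate 3, and Cfap69 was highest in Cdh1 cKO replicate 1, at 8.43.

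**Figure D4:**
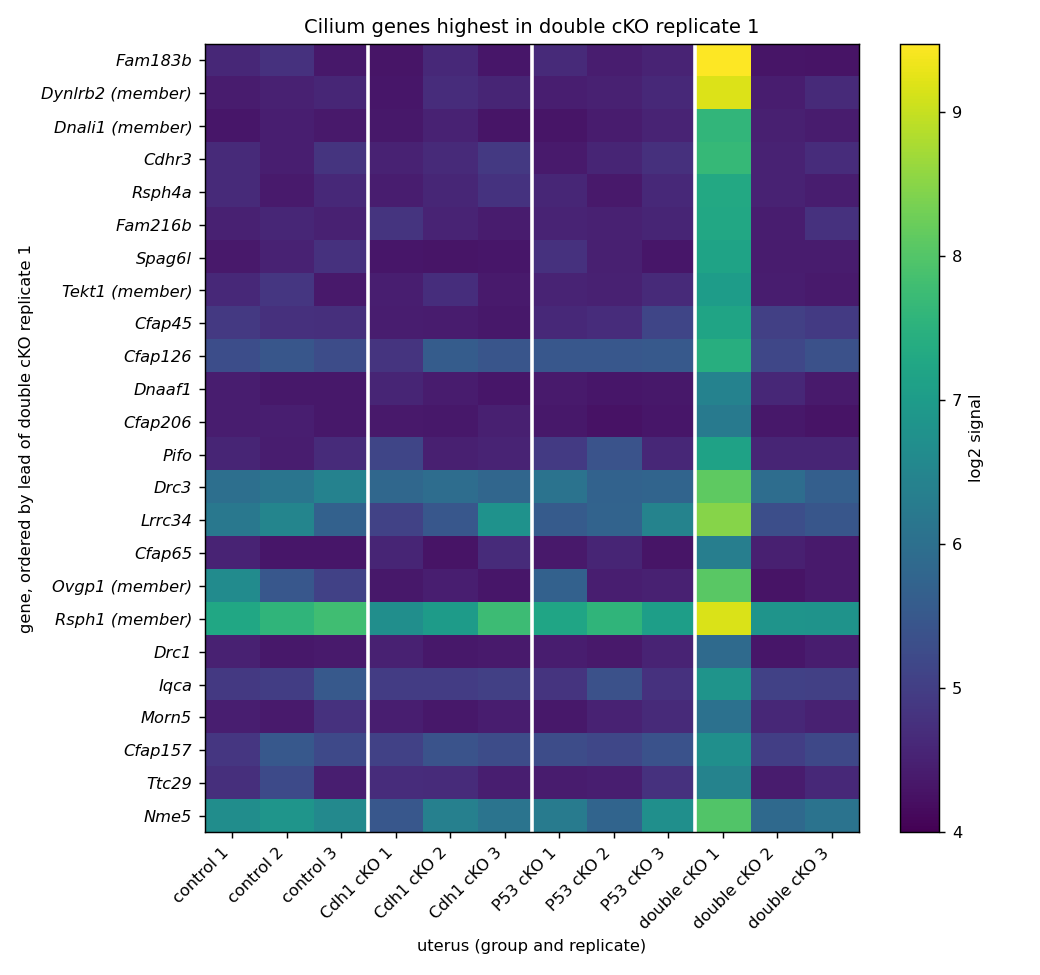
Log2 signal (colour) of the 5 members and 19 further cilium genes that led in double cKO replicate 1 (rows, ordered by lead) in the 12 uteri (columns, with white lines between genotypes). For a gene with several probes the probe with the widest lead is shown. The column of double cKO replicate 1 is the brightest in every row. Double cKO replicates 2 and 3 lack this signal, and for Ovgp1, Rsph1, Drc3, Lrrc34 and Nme5, among others, both lie below all 3 controls.

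The genes whose values ran most like the members were looked for over all tested probes with 1 symbol. For the mean of the 9 ciliated cell genes over 12 uteri, the closest 8 named genes had Pearson r from 0.914 to 0.961: Drc3, Cfap126, Ces1f, Cfap45, Cibar2, Fndc7, Fam166b and Iqca. Drc3, Cfap126, Cfap45 and Iqca are on the cilium list above. Without double cKO replicate 1 their r fell to between 0.26 and 0.59, so the likeness rests on that uterus. For Ovgp1 the closest 5 were Rtn1 (r = 0.945), Rpl39 (0.943), Tmem218 (0.901), Cpq (0.888) and Cbs (0.875), and without the 2 uteri farthest from the Ovgp1 median r was 0.79 to 0.91. These values are descriptions over 12 uteri that share their genotype groups.

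Other tissue markers were read on the same arrays, as summed linear signals of each list. In double cKO replicate 1 the uterine epithelium list (13 of 14 genes with a probe, 11 detected) summed to 39737, above 17143 to 30731 in control, 22199 to 33065 in Cdh1 cKO, 24081 to 26704 in P53 cKO and 29927 to 33081 in the other double cKO uteri. The proliferation list (8 of 10 with a probe) summed to 1229 there and to 2002 to 7568 in the other uteri, and the Hox list (Hoxa9, Hoxa10, Hoxa11 and Hoxa13) to 297 against 319 to 686. The ovary list (14 of 16 with a probe) summed to 403 there and to 389 to 499 elsewhere. Of the 14 genes, 5 were detected in at least 1 uterus, and Gdf9 and Inha were the brightest. In double cKO replicate 1, 4 were detected, against 2 to 5 in the other uteri. Amh, Fshr, Star, Cyp17a1, Zp1, Zp2, Zp3, Oosp1 and Nr5a1 were below detection in all 12 uteri. The list of other oviduct epithelium genes (Pax8, Pax2, Sox17, Slc1a3 and Krt7, 5 of 8 with a probe) summed to 5182 there and to 2790 to 5879 elsewhere, and none of the 5 led on any array. A linear sum mostly reflects the brightest genes of a list, here Krt7 and Sox17. The estrogen response list (9 of 10 with a probe) summed to 76056 there, to 11667 to 49993 in control, 23913 to 79817 in Cdh1 cKO, 24812 to 47809 in P53 cKO and at least 54839 in the other double cKO uteri. Smooth muscle and stroma were present in that uterus as in the others, with 68838 against 48854 to 78310 and 34429 against 28316 to 42303. Their part in the Ovgp1, Tppp3 and cilium gene results was not tested.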

How the data were processed

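The members and the gene lists were chosen with earlier results of these data known. Per the file headers, the authors deposited non-normalised intensities, a detection p-value for each, bead counts and the standard error over beads. The log2 matrix that the authors deposited beside them has no stated processing beyond limma 3.10.2, per the submitters' processing notes. Here the deposited intensities were processed with neqc of limma 3.58.1 in R 4.3.3, which corrects background from the detection p-values, adds an offset of 16, quantile normalises and takes log2. On the member probes these values differed from the authors' log2 matrix by at most 0.00558, and the medians of the matrix columns were 4.72. The offset makes fold changes of dim genes too small.

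Of 45281 probes, 34885 had 1 gene symbol, 18 several and 10378 none in the platform annotation. Tested were the 23229 probes detected at p below 0.05 in 3 or more of the 12 arrays. Limma was fitted with a coefficient per group to all 12 arrays, with 8 residual and 3.08 prior degrees of freedom. The 7 contrasts were adjusted by the Benjamini-Hochberg method over all tested probes, 2-sided. A gene was read by its detected probe with the highest mean. A fold against a group below detection is written as at least the bright mean over, per array, the higher of the dim probe and the lowest detected signal.

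All 10 genes are named, and of each cilium list up to 3 genes with the largest range among those detected on at least 3 arrays. Genes named for their lead in single arrays were chosen after their values were seen. Promoters came from RefSeq tables of GRCm38.p6, and the looser X-box was added after the sequences were seen. Tested on simulated data for double cKO against control (23229 probes), the fit recovered 18, 42, 48 and 49 of 50 probes at log2 changes of 1, 2, 3 and 4, with 11 false calls. The simulated noise was normal and independent between probes and arrays, with no outlying uterus, and the changed probes were drawn at random. These counts therefore do not give the power for the members. In control and Cdh1 cKO, uteri of the same replicate number deviated together (r from 0.11 to 0.32 over probes), and in the other comparisons not every pair exceeded 0.1. All values in the text come from the fit without this pairing, and the fit with the number as a block is an alternative. The alternatives were the authors' matrix, other filters, a replicate block and leaving out each array. The gene for p53 itself is not reported here.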

Additional observations from a re-analysis of the deposited data

How the results depend on the processing

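Of 480 values recomputed under the alternatives, 451 kept their direction and side of the threshold or moved by less than the spread between replicates. Of the others, 15 moved, 8 lost and 4 gained a call, and 2, both differences of a single gene, changed sign. For double cKO against control the number of called members went from 1 to 0 with no filter on dim probes (Tppp3 adjusted p = 0.0843) and with the replicate block (Tppp3 adjusted p = 0.0737). Leaving out single arrays gave 0 or 1 called members, and without double cKO replicate 1 the called gene was Ovgp1 in place of Tppp3. That uterus had the highest Ovgp1 signal, so its removal was bound to widen the Ovgp1 difference. In the same comparison 455 probes were called over the whole array, and 247 with the replicate block, 253 without double cKO replicate 1, 290 and 163 without replicates 2 and 3, 169, 157 and 762 without control replicates 1, 2 and 3. For double cKO against P53 cKO leaving out single arrays gave 0 or 1 called members, namely Ovgp1 (-4.06, adjusted p = 0.0201) without double cKO replicate 1 and Tppp3 without double cKO replicate 2 (-2.30, 0.0483) or Cdh1 cKO replicate 2 (-1.92, 0.0309). Over such fits the Ovgp1 difference of double cKO ran from -5.69 to -1.80 against control, from -1.90 to 1.98 against Cdh1 cKO and from -4.06 to -0.18 against P53 cKO, and the interaction from -0.28 to 3.603. The 2 changes of sign of a single gene, both of Ovgp1 (-1.90 and -0.28), came without double cKO replicate 1. The median of the 9 ciliated cell genes also crossed 0, by less than the spread between replicates. It ran from -0.24 to 0.03 in Cdh1 cKO against control, from -0.18 to 0.008 in P53 cKO against control and from -0.09 to 0.05 in Cdh1 cKO against P53 cKO. The median log2 difference of the 9 ciliated cell genes ran from 0.0460 to 0.66 against control (0.46 with all arrays), from 0.0111 to 0.86 against Cdh1 cKO (0.46) and from 0.00923 to 1.12 for the interaction (0.72), with the lowest value of each without double cKO replicate 1. Over all tested probes, with all arrays, the medians were -0.04, -0.01 and -0.0051. The 0.46 against control is the value of Ccdc113, which was detected only in double cKO replicate 1. Tppp3 against control kept its sign with adjusted p up to 0.163. In Cdh1 cKO against control, where every pair of numbers deviated together, the replicate block changed no member's call (Ovgp1 adjusted p = 0.655 against 0.593 without it), and elsewhere the samples share only a number. The X-box count went from 0 to 1 with the second arm NGNAAC. Fewer samples or more probes tested are part of the construction of several alternatives, and beyond that the cause was not tested. Dynlrb2, Dnali1, Spag6 and Ccdc113 were detected on 1 array each and Tekt1 on 5, and signals near background, Foxj1 included, understate a change.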

Other observations

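Among the 102 genes that led in double cKO replicate 1, the widest leads outside the cilium lists were those of Dcpp2 (8.40 on the log2 scale, at most 4.84 elsewhere), Sec14l3 (7.75, at most 4.46), Dcpp3 (8.24, at most 5.06) and Dmbt1 (9.31, at most 6.22). Dcpp2 and Dcpp3 belong to a family of secreted proteins known from salivary glands, and Dmbt1 encodes a secreted mucin-like protein of epithelia. Ecrg4 read 11.67 there and at most 9.02 elsewhere. The chemokine genes Ccl3 and Ccl4 led as well, at 9.05 against at most 7.53 and at 10.13 against at most 8.51, and so did the cytokine gene Il1a, at 8.54 against at most 6.99. Of the 50 widest leads, 4 were members, 13 were further cilium genes and 8 had clone names. These genes were chosen after their values were seen.

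Cdh1 cKO replicate 3 led for 96 of the 19057 genes, among them 6 of 11 genes of the cervix and vagina list, whose summed signal was 18173 there. None of the 10 members led on that array.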
